A study of Homo sapiens with 9 samples.

Results

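The genes described here encode the machinery that brings secretory and membrane proteins into the endoplasmic reticulum (ER) and folds them there. They are 48 genes of the 20263 in the deposited count table, chosen by name: ER chaperones, enzymes that form and shuffle disulfide bonds, ER prolyl isomerases, and the translocation apparatus of the ER membrane. All 48 symbols were found in the table, and all 48 passed the filter on low counts that left 13912 genes for testing. No measured value of these libraries entered the choice of names, although earlier results of the same data were known when the names were listed.

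The libraries come from HaCaT, a human keratinocyte line that grows without limit, and hold messenger RNA from 3 groups with 3 libraries each. The first group (the glabridin group) is melanosome-laden HaCaT cells that also received glabridin, an isoflavan made by licorice. The second (the melanosome group) is melanosome-laden HaCaT cells, and the third (the control group) is HaCaT cells labelled WT, with neither agent. Melanosomes are organelles filled with melanin, which keratinocytes take up from melanocytes. All glabridin libraries therefore also carry melanosomes, and no library received glabridin alone. The sources used here give neither the dose, the exposure time and the vehicle nor the source and purity of the melanosomes. The stated aim of the series was to learn how glabridin promotes the degradation of melanosomes.

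Proteins bound for secretion, for membranes or for lysosomes begin their path at the ER. The signal recognition particle brings the ribosome to its receptor, the SEC61 channel threads the growing chain into or across the membrane, the TRAP complex sits beside the channel, and signal peptidase removes the signal sequence. Inside, the Hsp70 chaperone BiP and its partners, the lectin chaperones calnexin and calreticulin, the protein disulfide isomerases and the prolyl isomerases fold the chain. Many of these genes are known targets of the unfolded protein response, in which ATF6, XBP1 and ATF4 raise transcription when unfolded proteins accumulate.

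Known promoter elements of that response were sought in the RefSeq promoter table (GRCh38.p14), which holds windows from 250 bases before to 50 bases after annotated gene starts. It holds 44 of the 48 genes, in 61 windows, with PDIA3, FKBP14, SPCS1 and SRPRA not among them. On both strands, the ER stress response element (ERSE: CCAAT, any 9 bases, then CCACG) stood in 7 of the 44, or 15.9%, against 0.0916% of all 27305 genes in the table. ERSE-II (ATTGG, any base, then CCACG) stood in 2 of the 44, or 4.55%, against 0.0696% of all genes. The core of the unfolded protein response element (TGACGTGG), which XBP1 is known to bind, stood in 7, or 15.9%, against 0.927% of all genes. The core of the C/EBP-ATF response element (TTGCATCA), which ATF4 is known to bind, stood in 0 of 44, against 1.08% of all genes. The motifs were searched after the expression values had been seen, several of them were first described in promoters of these same genes, and a match is a description of the letters, not a site shown to be used.

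The promoters with an ERSE or ERSE-II are shown because they include that of HSPA5, the gene with the largest rise with glabridin, and because these elements are known from ER chaperone genes. Capitals mark the element. An ERSE reads CCAAT and then CCACG on one strand and CGTGG and then ATTGG on the other; an ERSE-II reads ATTGG and then CCACG on one strand and CGTGG and then CCAAT on the other. HSPA5 is shown over the 200 bases before its start, and the others with up to 15 bases on each side of the element. All are written 5′ to 3′ on the strand of the gene.
HSPA5, minus strand, chr9:125241344-125241543: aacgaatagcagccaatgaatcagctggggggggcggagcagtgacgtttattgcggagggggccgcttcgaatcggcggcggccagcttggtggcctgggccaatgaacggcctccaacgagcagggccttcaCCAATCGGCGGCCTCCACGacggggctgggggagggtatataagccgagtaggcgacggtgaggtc
HSP90B1, plus strand, chr12:103930201-103930249: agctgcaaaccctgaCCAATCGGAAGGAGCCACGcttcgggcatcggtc
HSP90B1, plus strand, chr12:103930306-103930354: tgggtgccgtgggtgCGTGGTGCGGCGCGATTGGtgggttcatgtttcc
CALR, plus strand, chr19:12938369-12938417: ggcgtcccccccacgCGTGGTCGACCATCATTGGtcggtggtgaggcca
CANX, plus strand, chr5:179698763-179698811: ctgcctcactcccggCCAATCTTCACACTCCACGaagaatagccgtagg
PDIA6, minus strand, chr2:10812838-10812886: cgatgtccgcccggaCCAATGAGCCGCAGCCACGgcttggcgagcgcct
CRELD2, plus strand, chr22:49918539-49918587: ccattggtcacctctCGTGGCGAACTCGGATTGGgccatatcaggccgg
ERO1B, minus strand, chr1:236282168-236282208: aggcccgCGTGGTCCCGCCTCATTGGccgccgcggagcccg
HYOU1, minus strand, chr11:119057365-119057405: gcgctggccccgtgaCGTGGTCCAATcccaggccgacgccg
HYOU1, minus strand, chr11:119057259-119057299: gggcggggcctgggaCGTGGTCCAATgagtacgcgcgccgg
SDF2L1, plus strand, chr22:21642099-21642139: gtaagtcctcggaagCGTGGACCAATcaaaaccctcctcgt

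The UPRE core was found in DNAJC10, SSR3, SEC62, TXNDC5, TXNDC11 and SSR4, and in HYOU1, where it overlaps one of the ERSE-II elements. By exact letters, HSP90B1 carries 2 ERSE and HYOU1 carries 2 ERSE-II, and SDF2L1 has an ERSE-II. Near matches were not sought, so any gene, HSPA5 included, may hold further inexact elements. With glabridin, 8 of the 9 genes with an ERSE or ERSE-II rose (all but ERO1B), beside 5 of the 6 with a UPRE core alone and 26 of the 29 with none of the motifs, so the count did not set the motif-bearing genes apart. The median log2 fold change with glabridin was 1.36 over the 9 genes with an ERSE or ERSE-II, 0.75 over the 6 with a UPRE core alone and 0.88 over the 29 with none of the motifs. Genes without a motif in the window ranged from ERO1A, at −0.32, to DNAJB9, at 2.45.

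Deposited counts totalled 42582054 to 46591852 per glabridin library, 39653425 to 46690787 per melanosome library and 41793696 to 45839573 per control library. All 14 keratinocyte markers listed, such as KRT5 and KRT14, were detected in every group; their summed level was 11620 to 14350 CPM (counts scaled by library size) in glabridin, 13640 to 14670 CPM in melanosome and 16720 to 16900 CPM in control libraries. The 18 melanocyte markers listed summed to 1987 to 3723 CPM in glabridin and 3380 to 3506 CPM in melanosome libraries, against 149.2 to 157 CPM in control libraries, where TYR, TRPM1, OCA2, KIT, PAX3 and ABCB5 were at 0 and GPNMB made up most of the sum. All 18 rose in melanosome against control and in glabridin against control, where 29.5% and 37.6% of all genes tested rose. Between glabridin and melanosome, 1 rose and 6 fell, against 23.7% and 20.2% of all genes tested. Of the 18, 4 fell at least 2-fold, against 4.78% of all genes tested. Transcripts known from pigment cells were thus high in both melanosome-laden groups, and some differed between these groups. Their part in the differences of the ER genes was not tested. In none of the comparisons can it be told apart from an effect on HaCaT cells. In such bulk samples, fewer cells of a type and less RNA per cell cannot be told apart either. The 7 fibroblast markers summed to at most 14.65 CPM in any library. The glabridin libraries differed among themselves more than the others did, with a median range over the 3 libraries of 0.26 (log2) for the 48 genes, against 0.12 in the melanosome group and 0.10 in the control group.

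The comparison of glabridin with melanosome libraries asks what glabridin changes in laden cells. Nearly all of the ER genes were higher. Of the 48, 43 rose, 1 fell (ERO1A) and 4 did not pass the test (SDF2, ERO1B, SEC62 and SPCS3) at an adjusted p under 0.05 (edgeR's quasi-likelihood test, adjusted by the Benjamini-Hochberg method over all 13912 genes). Among all genes tested, 23.7% rose and 20.2% fell, so that 43.9% were called in either direction. At least 2-fold rises were called for 20 of the 48, against 3.24% of all genes, and falls of that size for 0, against 4.78%. The median log2 fold change was 0.91 for the 48 genes and 0.01 for all genes tested. In 43 genes every glabridin library lay above every melanosome library, as in 26.0% of all genes, and in ERO1A every one lay below, as in 24.2% of all genes. With replicate block, filter, scaling and program varied, and with each library left out in turn, 39 to 46 of the 48 rose, and 39 of the 44 calls were the same under each of the 20 alternatives. The 5 exceptions were UGGT1, UGGT2, ERO1A, FKBP14 and SEC11A.

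Summed over the 48 genes, the level was 19960, 17070 and 19830 CPM in the glabridin libraries, against 6605, 6574 and 6616 CPM in the melanosome libraries and 6655, 6591 and 6522 CPM in the control libraries. All 3 glabridin libraries thus stood far above the other 6, which lay within a narrow range of CPM. In TPM every melanosome library lay above every control library, so the closeness of melanosome and control depended on the unit. In TPM, a unit corrected for transcript length, the 48 genes held 1.66 ± 0.18% of the total in glabridin, 0.699 ± 0.0127% in melanosome and 0.597 ± 0.00265% in control libraries (SD, n = 3 each). HSPA5 alone contributed a mean of 5795 CPM to the mean sum of 18950 CPM in glabridin libraries, against 498.8 CPM of 6598 CPM in melanosome libraries.

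**Figure D1:**
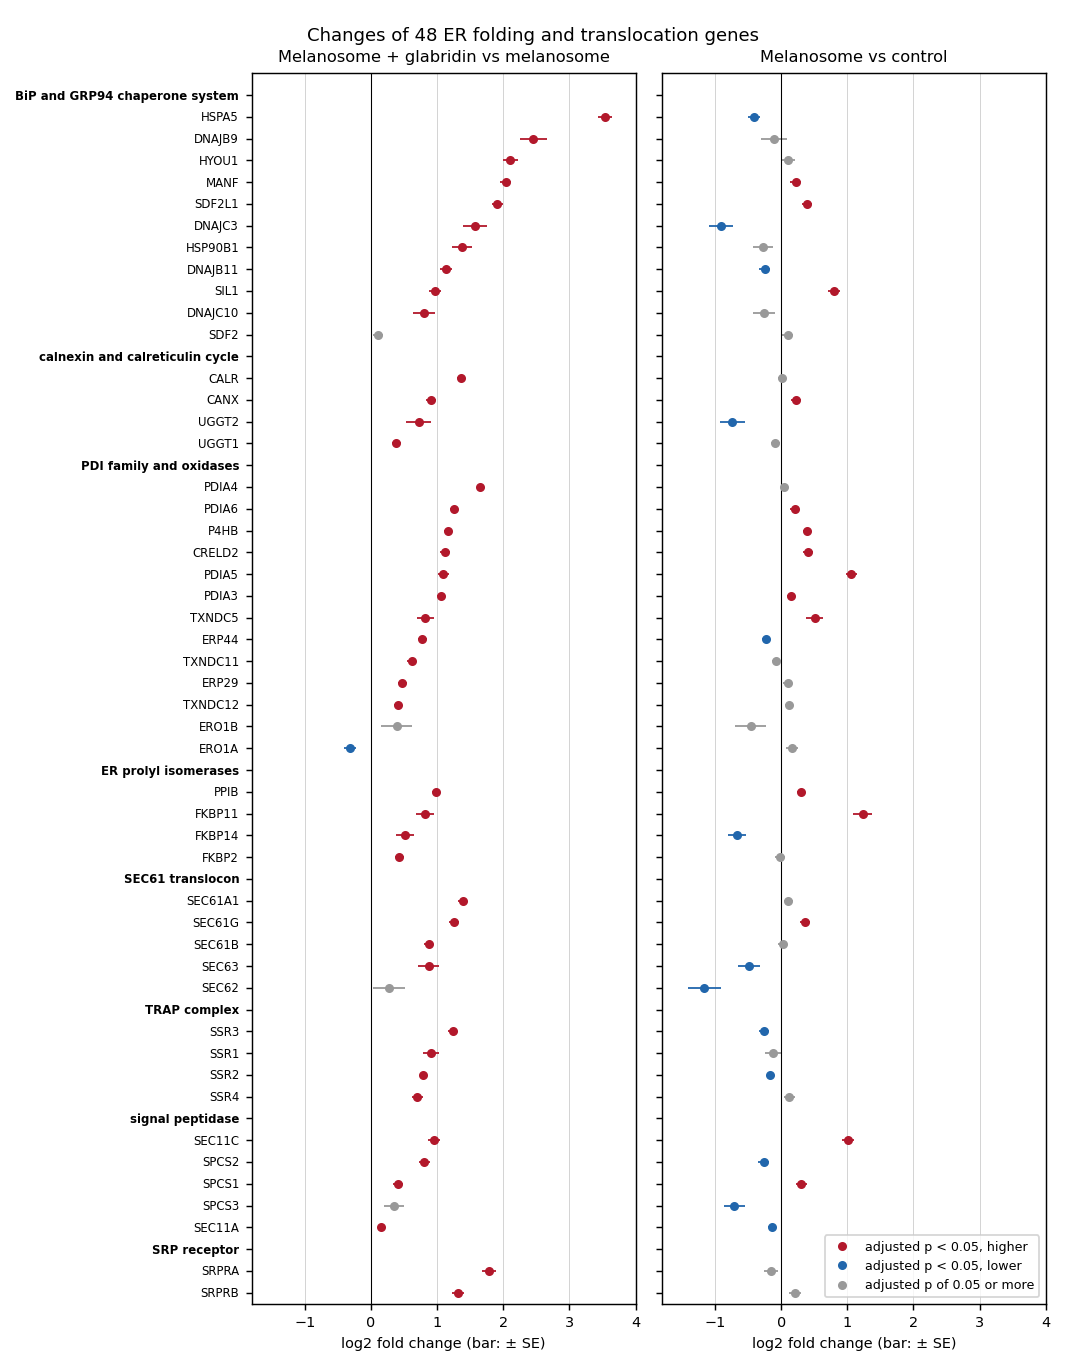
Log2 fold change (horizontal axis, bars ± SE) of the 48 genes by role group, for melanosome + glabridin against melanosome (left) and melanosome against control (right); red marks genes called higher, blue genes called lower and grey genes with no call. On the left 43 points are red and 1 is blue, and on the right 15 are red and 13 are blue.

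The chaperone system of BiP and GRP94 held the largest rises. HSPA5, which encodes BiP, the main Hsp70 of the ER (chromosome 9, 125234853 to 125241330; positions of genes are on GRCh38), had 6334, 4814 and 6238 CPM in glabridin libraries, against 487.9, 507.8 and 500.6 CPM in melanosome libraries. The control libraries held 661.3, 669.3 and 666.3 CPM. Every glabridin library was far above all others, and the melanosome libraries lay below control. The rise over melanosome was 11.6-fold, a log2 fold change of 3.54 ± 0.10 (SE; edgeR adjusted p = 1.12e-08). By TPM, HSPA5 ranked 28 among all genes in the glabridin group, 369 in the melanosome group and 271 in the control group.

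Of the 11 genes of this system, 10 rose with glabridin and 8 of them at least 2-fold, with a median log2 fold change of 1.58. DNAJB9 (ERdj4), a J-domain co-chaperone of BiP that also restrains the stress sensor IRE1, rose by 2.45 on the log2 scale, and HYOU1, the large Hsp110-like ER chaperone that also exchanges nucleotide on BiP, by 2.11. MANF, a secreted ER-resident protein that binds BiP, rose by 2.03. The other J-domain partners rose less: DNAJC3 (p58IPK) by 1.58, DNAJB11 (ERdj3) by 1.14 and DNAJC10 (ERdj5, a disulfide reductase) by 0.80. HSP90B1, the ER Hsp90 known as GRP94, rose by 1.38 ± 0.15, and SIL1, a nucleotide exchange factor of BiP, by 0.97 ± 0.09 (SE; edgeR adjusted p = 5.08e-05 and 1.24e-05).

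SDF2L1 and SDF2 are paralogs that bind the J-domain partner DNAJB11 in the ER. SDF2L1 had 84.89, 79.10 and 77.58 CPM in glabridin libraries, against 21.25, 20.73 and 22.20 CPM in melanosome libraries and 16.08, 15.28 and 17.53 CPM in control libraries. SDF2 had 54.57, 51.18 and 48.47 CPM in glabridin libraries, against 43.42, 49.70 and 49.62 CPM in melanosome libraries and 45.66, 45.56 and 42.31 CPM in control libraries. The glabridin and melanosome libraries did not overlap for SDF2L1, which rose by 1.91 ± 0.08 on the log2 scale, and did overlap for SDF2, with a log2 fold change of 0.11 ± 0.08 (SE; edgeR adjusted p = 6.31e-08 and 0.275).

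In the calnexin and calreticulin cycle, which folds glycoproteins through their sugar chains, all 4 genes rose with glabridin. CALR, the soluble lectin calreticulin (chromosome 19, 12938578 to 12944489), had 1478, 1427 and 1334 CPM in glabridin libraries, against 532, 552.9 and 565.2 CPM in melanosome libraries and 563, 543.3 and 528 CPM in control libraries. Melanosome and control libraries overlapped, and all glabridin libraries lay above both. CANX, the membrane-bound lectin calnexin, rose by 0.90 on the log2 scale and CALR by 1.36 ± 0.06 (SE; edgeR adjusted p = 6.54e-06 and 8.19e-08).

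The glucosyltransferases that return unfolded glycoproteins to the cycle changed less. UGGT1 had 75.71, 65.45 and 75.15 CPM in glabridin libraries, against 52.91, 54.96 and 57.71 CPM in melanosome libraries and 58.15, 59.75 and 58.06 CPM in control libraries. UGGT2 had 18.79, 15.50 and 28.10 CPM in glabridin libraries, against 13.80, 12.76 and 11.24 CPM in melanosome libraries and 21.21, 19.04 and 22.72 CPM in control libraries. Both rose over melanosome, by 0.39 ± 0.07 and 0.72 ± 0.19 on the log2 scale (SE; edgeR adjusted p = 0.0015 and 0.0103), while the UGGT2 libraries of glabridin and control overlapped. Without glabridin replicate 3 the log2 fold change of UGGT2 was 0.45. UGGT2 was not called with library totals as the only scaling (adjusted p = 0.052) or with limma on log2(TPM + 1) (0.44, adjusted p = 0.101). UGGT1 was not called when tested against a fold of 1.2 (adjusted p = 0.0642) or with limma on log2(TPM + 1) (0.19, adjusted p = 0.127).

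Among the 13 genes of the PDI family and its oxidases, 11 rose with glabridin, 6 of them at least 2-fold, 1 fell and 1 was not called. PDIA4 (ERp72), a disulfide isomerase (chromosome 7, 149003062 to 149028641), had the largest rise of the family. Its level was 614.3, 625 and 614.3 CPM in glabridin libraries, against 194.6, 192.3 and 204.1 CPM in melanosome libraries and 195, 193.8 and 184.3 CPM in control libraries. The glabridin libraries lay far above the other 6, and melanosome and control overlapped. The log2 fold change over melanosome was 1.65 ± 0.05 (SE; edgeR adjusted p = 1.24e-08). P4HB, the archetypal disulfide isomerase PDI and a subunit of collagen prolyl hydroxylase, rose by 1.16. PDIA6 (P5) rose by 1.26, PDIA3 (ERp57, the partner of calnexin and calreticulin) by 1.06, and CRELD2, an ER protein with EGF-like repeats, by 1.12.

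PDIA5, a less abundant family member (chromosome 3, 123067062 to 123225227), had 87.25, 89.15 and 74.38 CPM in glabridin libraries, against 37.88, 38.09 and 41.49 CPM in melanosome libraries and 18.95, 19.49 and 17.88 CPM in control libraries. The 3 groups did not overlap and were highest with glabridin and lowest in control. The log2 fold change was 1.09 ± 0.08 for glabridin against melanosome (SE; edgeR adjusted p = 3.95e-06). The remaining thioredoxin-fold genes rose by smaller amounts on the log2 scale: TXNDC5 by 0.82, ERP44 (which retains ERO1 enzymes in the ER) by 0.78, TXNDC11 by 0.62, ERP29 by 0.47 and TXNDC12 by 0.40. Exons of TXNDC5 overlap those of a read-through gene on the same strand, and those of PDIA5 overlap SEC22A on the same strand, so both counts are uncertain. The same holds for DNAJB11, TXNDC12, FKBP11, SSR1 and SRPRB, each of which overlaps another counted gene on its strand.

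The ERO1 oxidases, which hand disulfide bonds to PDI, were not called higher with glabridin in the main fit. ERO1A (chromosome 14, 52639916 to 52695900) had 135.6, 148.5 and 161.5 CPM in glabridin libraries, against 207.6, 178.6 and 168.5 CPM in melanosome libraries and 167.7, 162.9 and 164.7 CPM in control libraries. All glabridin libraries lay below all melanosome libraries, by a narrow margin at the nearest pair. ERO1A fell by 0.32 ± 0.09 on the log2 scale (SE; edgeR adjusted p = 0.0123), and the call was lost when the change was tested against a fold of 1.2 (adjusted p = 0.271). ERO1B, its lowly expressed paralog, had 6.195, 3.694 and 7.337 CPM in glabridin libraries, against 4.960, 4.621 and 3.593 CPM in melanosome libraries and 7.079, 5.856 and 5.143 CPM in control libraries. These ranges overlapped, with a log2 fold change of 0.39 ± 0.23 (SE; edgeR adjusted p = 0.20), and without glabridin replicate 2 ERO1B was called higher, at 0.63 (adjusted p = 0.00801).

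**Figure D2:**
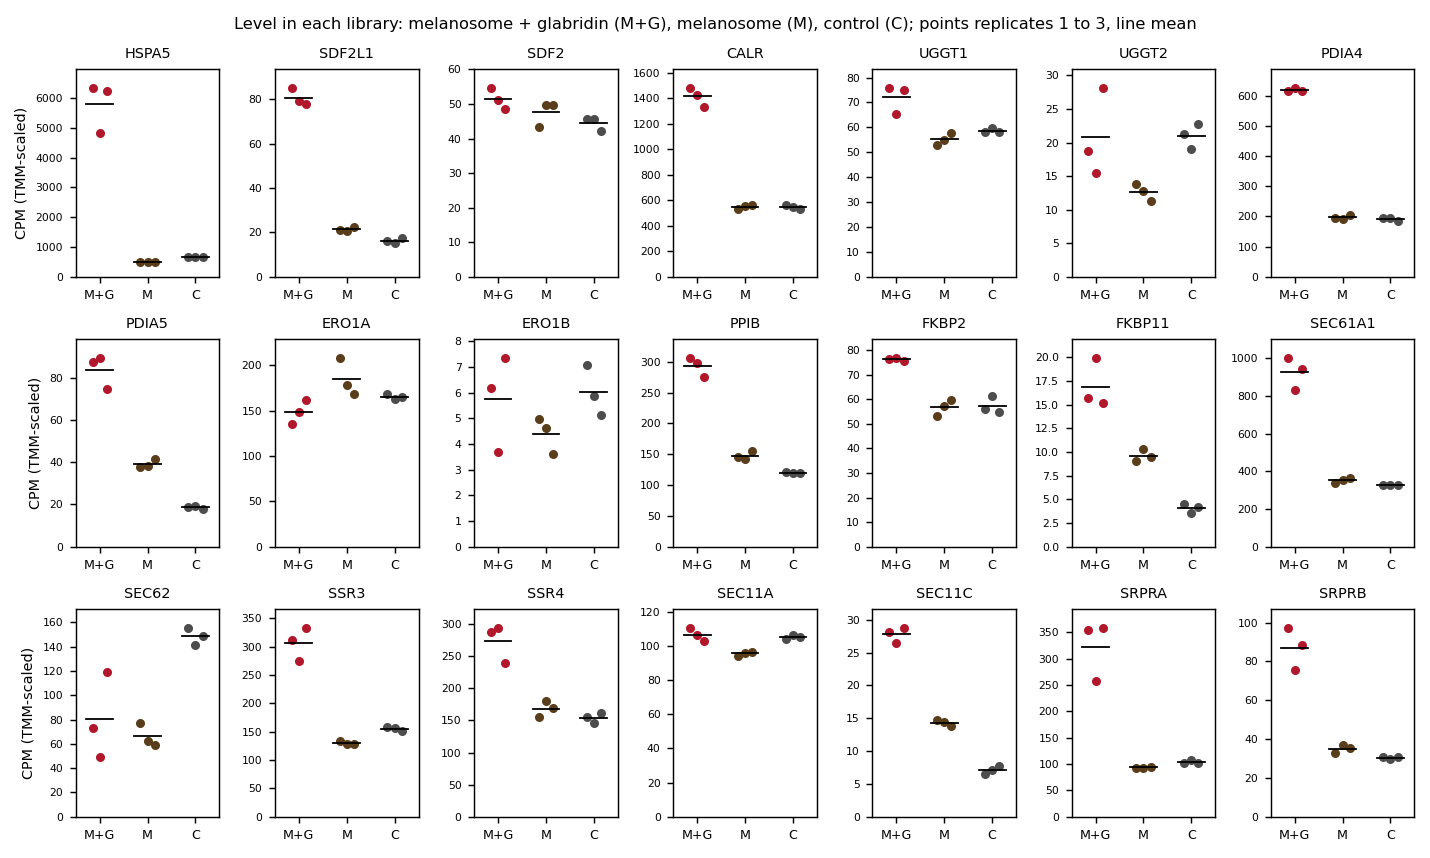
Level in each library (vertical axes, TMM-scaled CPM from 0) of 21 of the genes, for melanosome + glabridin (M+G), melanosome (M) and control (C); points are replicates 1 to 3 and lines group means. HSPA5 reaches 6334 CPM in the glabridin group, against at most 507.8 CPM in the melanosome group, whereas ERO1A is lower in the glabridin group.

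All 4 ER prolyl isomerases, which turn peptide bonds before proline, rose with glabridin. PPIB, cyclophilin B (chromosome 15, 64155812 to 64163205), had 305.8, 297.8 and 275.4 CPM in glabridin libraries, against 144.9, 142.8 and 155.6 CPM in melanosome libraries and 120.8, 120.1 and 120.1 CPM in control libraries. FKBP2 had 76.54, 76.69 and 75.48 CPM in glabridin libraries, against 53.03, 57.19 and 59.78 CPM in melanosome libraries and 55.88, 61.43 and 54.64 CPM in control libraries. The 3 groups were separate for PPIB, while melanosome and control overlapped for FKBP2. The log2 fold changes over melanosome were 0.99 ± 0.06 for PPIB and 0.43 ± 0.07 for FKBP2 (SE; edgeR adjusted p = 7.49e-07 and 0.000632).

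FKBP11, an isomerase known from secretory cells (chromosome 12, 48921518 to 48926474), had 15.65, 19.90 and 15.13 CPM in glabridin libraries, against 9.009, 10.27 and 9.475 CPM in melanosome libraries and 4.536, 3.549 and 4.154 CPM in control libraries. Its groups too were separate, highest with glabridin and lowest in control. FKBP14, which acts on collagen, rose by 0.52 ± 0.14 over melanosome (SE, edgeR adjusted p = 0.0122). This call held under 14 of the 20 alternatives. It was lost, for example, without melanosome replicate 3 (log2 fold change 0.45, edgeR adjusted p = 0.0557). Without glabridin replicate 3 the log2 fold change of FKBP14 was 0.33.

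In the SEC61 translocon, 4 of 5 genes rose with glabridin. SEC61A1, the pore-forming subunit (chromosome 3, 128051641 to 128071683), had 1000, 832.9 and 943.8 CPM in glabridin libraries, against 340, 355.4 and 365.5 CPM in melanosome libraries and 328, 327.9 and 327.9 CPM in control libraries. The glabridin libraries lay well above the others, with a log2 fold change over melanosome of 1.39 ± 0.07 (SE; edgeR adjusted p = 2.36e-07). The small subunits SEC61G and SEC61B rose by 1.25 and 0.88, and SEC63, the J-domain protein that recruits BiP to the channel, by 0.87.

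SEC62, the partner of SEC63 in post-translational import and a receptor for ER-phagy (chromosome 3, 169966635 to 169998373), was the exception. It had 73.27, 49.55 and 118.8 CPM in glabridin libraries, against 77.05, 62.77 and 59.46 CPM in melanosome libraries and 155.3, 141.5 and 148.9 CPM in control libraries. Glabridin and melanosome libraries overlapped, and both lay below every control library. The log2 fold change over melanosome was 0.28 ± 0.24 (SE; edgeR adjusted p = 0.38). It was 0.53 (adjusted p = 0.0145) without glabridin replicate 2 and −0.11 without glabridin replicate 3, so single libraries decided its direction.

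All 4 subunits of the TRAP complex rose. SSR3 had 311.1, 273.9 and 332.6 CPM in glabridin libraries, against 133, 128.9 and 128.2 CPM in melanosome libraries and 158.9, 156 and 151.9 CPM in control libraries. SSR4 had 287.5, 293.6 and 240.1 CPM in glabridin libraries, against 154.5, 180.2 and 169.9 CPM in melanosome libraries and 155.8, 146 and 161.2 CPM in control libraries. SSR3 libraries fell in 3 separate groups, with melanosome lowest, and SSR4 libraries of melanosome and control overlapped. The log2 fold changes over melanosome were 1.23 ± 0.07 and 0.70 ± 0.09 (SE; edgeR adjusted p = 5.54e-07 and 0.000109), with SSR1 at 0.91 and SSR2 at 0.79.

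Signal peptidase had the smallest median log2 fold change of the role groups, 0.41 over its 5 genes, of which 4 rose. Its catalytic subunits are the paralogs SEC11A and SEC11C. SEC11C (chromosome 18, 59139477 to 59158836) had 28.13, 26.51 and 28.74 CPM in glabridin libraries, against 14.73, 14.38 and 13.89 CPM in melanosome libraries and 6.529, 7.076 and 7.739 CPM in control libraries. SEC11A had 110.4, 106.1 and 103.1 CPM in glabridin libraries, against 94.14, 95.89 and 96.63 CPM in melanosome libraries and 104.1, 106.5 and 105.4 CPM in control libraries. SEC11C stood in 3 separate groups and rose by 0.96 ± 0.09 over melanosome, while SEC11A moved by 0.16 ± 0.05 (SE; edgeR adjusted p = 1.47e-05 and 0.0323), a call that held under 3 of the 20 alternatives. The accessory subunits SPCS2 and SPCS1 rose by 0.81 and 0.41. SPCS3, the accessory subunit that catalysis requires, was at 0.35 ± 0.16 (edgeR adjusted p = 0.0969) and was called higher, at 0.50, without glabridin replicate 2.

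The receptor of the signal recognition particle rose strongly in both subunits. SRPRA, which docks the particle (chromosome 11, 126262919 to 126269144), had 354.4, 257.3 and 358.2 CPM in glabridin libraries, against 93.50, 93.49 and 94.41 CPM in melanosome libraries and 101.7, 107.7 and 102.6 CPM in control libraries. SRPRB, its membrane anchor, had 97.11, 75.76 and 88.44 CPM in glabridin libraries, against 33.07, 37.06 and 35.23 CPM in melanosome libraries and 30.91, 29.53 and 30.96 CPM in control libraries. Every glabridin library lay above all others for both genes, with log2 fold changes over melanosome of 1.79 ± 0.11 and 1.31 ± 0.09 (SE; edgeR adjusted p = 9.06e-07 and 2.17e-06).

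**Figure D3:**
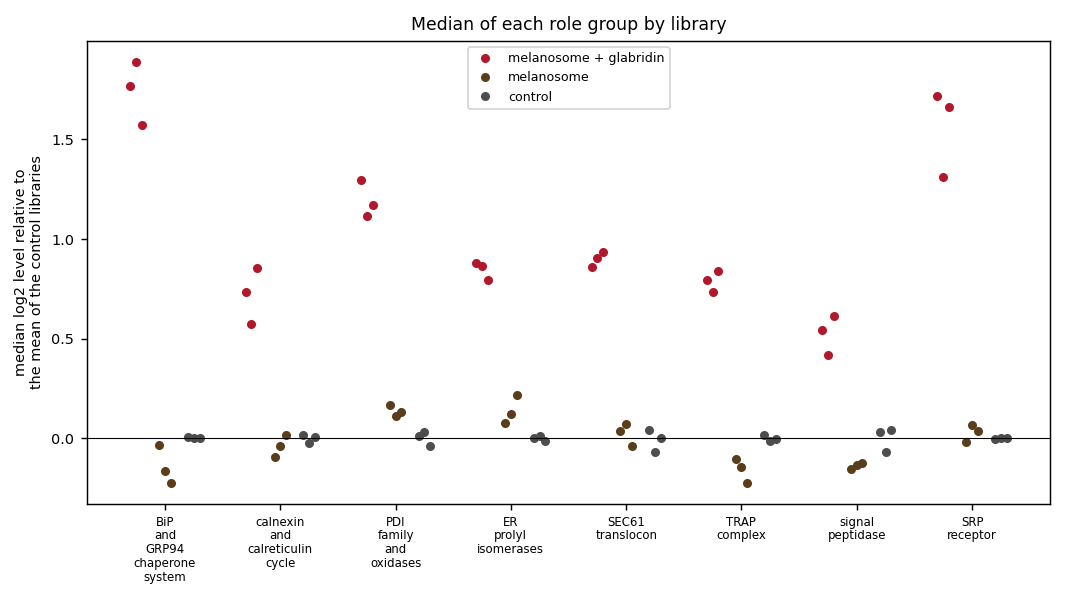
Median over the genes of each role group (horizontal axis) of the log2 level relative to the mean of the control libraries (vertical axis), with 1 point per library. In all 8 role groups the 3 glabridin points lie above the 3 melanosome points.

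Because deposited TPM corrects for transcript length, it allows levels to be set side by side between genes. In glabridin libraries HSPA5 was the most abundant of the 48 at 3868 ± 733 TPM, followed by P4HB at 1935 ± 125 TPM and CALR at 1926 ± 86.3 TPM, which did not differ beyond their spread. HSP90B1 came next at 803.4 ± 252 TPM and PPIB at 703 ± 28.8 TPM (SD, n = 3 each), again within their spread. In melanosome libraries the order was P4HB (982.4 ± 23.4 TPM), CALR (852.5 ± 7.88 TPM), PPIB (403.2 ± 17.2 TPM) and HSPA5 (376.5 ± 4.91 TPM). In control libraries CALR (745.4 ± 18.9 TPM) stood first, before P4HB (664.7 ± 17.2 TPM) and HSPA5 (443.6 ± 6.37 TPM). ERO1B was the lowest of the 48 in all 3 groups, at 2.80 ± 1.04 TPM in glabridin, 2.42 ± 0.437 TPM in melanosome and 2.92 ± 0.455 TPM in control libraries.

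The comparison of melanosome with control libraries asks what carrying melanosomes changes. The ER genes moved both ways and mostly by little, and the shares called in each direction were near those of all genes. Of the 48, 15 rose, 13 fell and 20 did not pass the test, against 29.5% of all genes that rose and 33.0% that fell, or 62.5% in either direction (edgeR, adjusted p under 0.05). The median log2 fold change was 0.03 for the 48 and −0.06 for all genes. Under the 20 alternatives the median of the 48 lay between 0.033 and 0.214, so the main fit stood at the low end. At least 2-fold changes were called for PDIA5, FKBP11 and SEC11C (higher, against 13.8% of all genes) and for SEC62 (lower, against 5.83%). Groups did not overlap in 20 genes with melanosome above and 18 with melanosome below, against 35.0% and 41.1% of all genes.

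The counts depended on the scaling: with library totals alone, which moved the median of all genes by 0.167 on the log2 scale, 25 of the 48 rose and 5 fell. Calls were the same under each of the 20 alternatives for 12 of the 28 genes. Of these, 8 were higher (SIL1, SDF2L1, PDIA5, P4HB, TXNDC5, CRELD2, FKBP11 and SEC11C) and 4 were lower (DNAJC3, FKBP14, SEC62 and SPCS3). Leaving out single libraries gave 7 genes lower without glabridin replicate 1 or without control replicate 1 and 8 without melanosome replicate 3, against 13 with all libraries.

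Of the 15 genes that rose with melanosomes, 6 belonged to the PDI family and its oxidases. The others lay in several role groups, with none in the TRAP complex or the receptor of the signal recognition particle. The largest log2 rises were those of FKBP11, at 1.23 ± 0.14, PDIA5, at 1.06 ± 0.09, SEC11C, at 1.01 ± 0.09, and SIL1, at 0.80 ± 0.09 (SE; edgeR adjusted p = 2.81e-05, 2.3e-06, 5.55e-06 and 2.54e-05). Their values in every library, given above for the first 3, separated the groups. P4HB rose by 0.38, CRELD2 by 0.41 and SDF2L1 by 0.39. The largest fall was that of SEC62, at −1.16 ± 0.24, followed by DNAJC3, at −0.91 ± 0.18, UGGT2, at −0.74 ± 0.19, SPCS3, at −0.71 ± 0.16, and FKBP14, at −0.66 ± 0.14 (SE; edgeR adjusted p = 0.00199, 0.00147, 0.00634, 0.00266 and 0.00197). HSPA5 fell by 0.42 ± 0.09 (adjusted p = 0.0026), and was not called with library totals alone (−0.25, adjusted p = 0.0503) or with limma on log2(TPM + 1) (−0.24, adjusted p = 0.102).

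Transcript composition moved with these differences. Over the 48 genes the Spearman correlation of the log2 fold change of melanosome against control was 0.624 with the GC content of the longest coding transcript and −0.552 with its length, against 0.301 and −0.177 over 13855 of the genes tested. All points share the same 6 libraries. Of the 20 genes under 45% GC, 4 rose and 9 fell, and of the 28 at 45% or more, 11 rose and 4 fell. The same GC classes were not counted over all genes, here or for glabridin against melanosome. The split is thus not shown to be particular to the ER genes. For glabridin against melanosome the same correlations were 0.338 and −0.164, against −0.02 and −0.123 over all genes, and 16 of the 20 genes under 45% GC and 27 of the 28 others rose. SEC62, at 36.7% GC and 6568 bases, stood near one end, and SDF2L1, at 65.5% GC and 865 bases, at the other. The part of GC content and length in the differences was not tested.

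**Figure D4:**
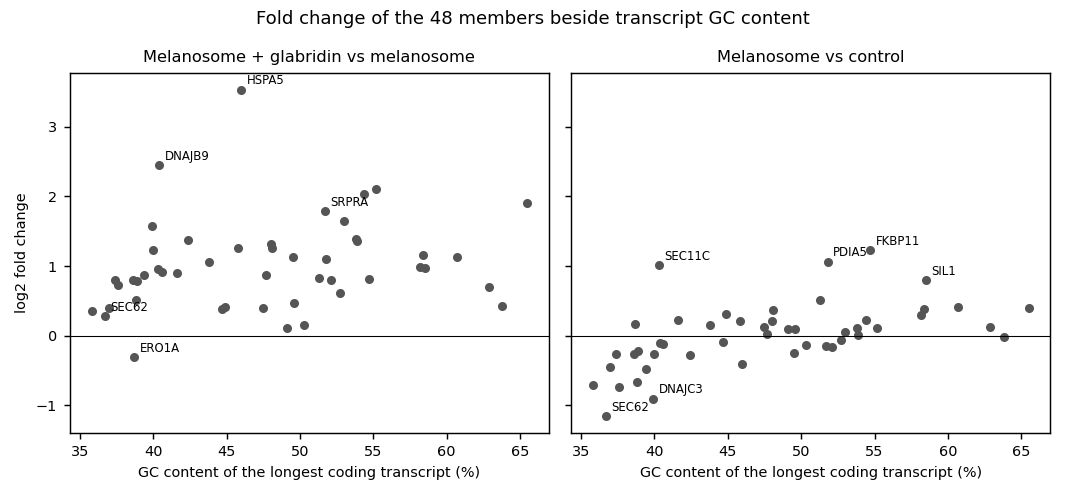
Log2 fold change of the 48 genes (vertical axis) against the GC content of the longest coding transcript (horizontal axis, %), for melanosome + glabridin against melanosome (left) and melanosome against control (right). On the right the fold change is higher at higher GC content, with SEC62, at 36.7% GC, lowest at −1.16; on the left most points lie above 0 across the GC range.

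Both comparisons use the same melanosome libraries, so their values are given side by side without a test of the relation. Of the 15 genes higher in melanosome than in control, 15 were also higher in glabridin than in melanosome. Of the 13 that were lower in melanosome than in control, 11 were higher in glabridin than in melanosome and 2 (SEC62 and SPCS3) had no call. Of the 20 with no call between melanosome and control, 17 were higher with glabridin, 1 was lower and 2 had no call. Since 43 of all 48 genes were higher in glabridin than in melanosome, high counts in each class follow from that. The same shares over all genes were not computed, so these counts show no link between the comparisons.

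Set directly against control, which it differs from by both melanosomes and glabridin, the glabridin group had 40 of the 48 genes higher, 1 lower (SEC62) and 7 with no call, against 37.6% of all genes higher and 32.7% lower, or 70.3% in either direction (edgeR, adjusted p under 0.05). At least 2-fold rises were called for 23 of the 48, against 16.2% of all genes, and falls of that size for 0, against 11.4%. Every glabridin library lay above every control library in 40 genes, as in 38.7% of all genes, and below in 2 (ERO1A and SEC62), as in 34.4%. The median log2 fold change was 0.94 for the 48 and 0.03 for all genes. The largest was again HSPA5, at 3.12 ± 0.10, with DNAJB9 at 2.35, SDF2L1 at 2.31, MANF at 2.25 and HYOU1 at 2.22. PDIA5 (2.15), FKBP11 (2.05) and SEC11C (1.97) had higher values here than against melanosome, since melanosome lay above control for each. SEC62 was below control at −0.88 ± 0.24 (SE; edgeR adjusted p = 0.00732). UGGT2, ERO1A, ERO1B, FKBP14, SEC63, SPCS3 and SEC11A had no call, and SEC63 was called higher, at 0.56, without glabridin replicate 2. Without glabridin replicate 3, 5 genes were lower: SEC62, and UGGT2, ERO1A, FKBP14 and SPCS3 at −0.29, −0.22, −0.33 and −0.58.

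Ratios within a library compare paralogs without any scaling between libraries. The TPM ratio of SDF2L1 to SDF2 was 2.99, 2.97 and 3.07 in glabridin libraries, against 0.939, 0.801 and 0.859 in melanosome libraries and 0.676, 0.644 and 0.795 in control libraries. The ratio of SEC11C to SEC11A was 0.193, 0.189 and 0.211 in glabridin libraries, against 0.118, 0.114 and 0.109 in melanosome libraries and 0.0475, 0.0502 and 0.0556 in control libraries. Both ratios separated all 3 groups, with glabridin highest and control lowest. A two-sided exact permutation test of 3 against 3 libraries gave p = 0.1 for each pair of groups, the smallest it allows, and 0.15 after Benjamini-Hochberg adjustment over the 12 ratio tests.

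The other paralog ratios did not separate glabridin from the other groups. The ratio of ERO1A to ERO1B was 19.5, 36.1 and 19.6 in glabridin libraries, against 37.4, 34.3 and 41.6 in melanosome libraries and 21.1, 24.8 and 28.5 in control libraries. The ratio of UGGT1 to UGGT2 was 2.46, 2.57 and 1.63 in glabridin libraries, against 2.34, 2.62 and 3.13 in melanosome libraries and 1.67, 1.91 and 1.55 in control libraries. For both, melanosome libraries lay above control libraries (exact permutation p = 0.1, the smallest possible), and glabridin overlapped with each of the other groups.

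**Figure D5:**
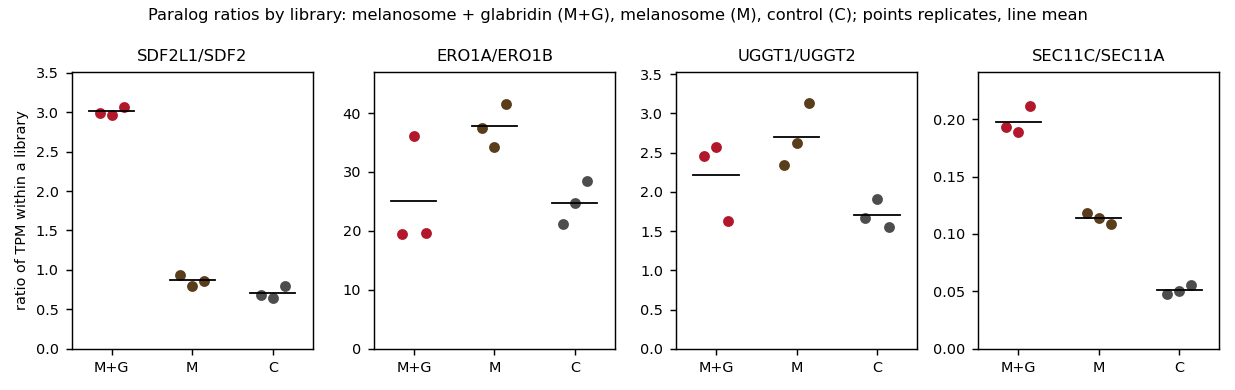
Ratio of TPM within a library (vertical axes from 0) for 4 paralog pairs, in melanosome + glabridin (M+G), melanosome (M) and control (C) libraries; points are replicates and lines group means. SDF2L1/SDF2 is near 3 in all glabridin libraries, against at most 0.939 in melanosome libraries.

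Neighbouring steps of the same pathway were followed in 8 further lists, with 74 genes of which 72 passed the filter and GPX7 and CLGN did not. With glabridin against melanosome, 43 of the 72 rose and 3 fell, against 23.7% of all genes that rose and 20.2% that fell. Their median log2 fold change was 0.35, against 0.91 for the 48 genes and 0.01 for all genes. All 3 KDEL receptors, which return escaped chaperones from the Golgi apparatus, rose: KDELR3 by 2.65, KDELR2 by 1.57 and KDELR1 by 0.84. The oligosaccharyltransferase, which attaches sugar chains to proteins as they enter the ER, rose in 11 of 12 subunits, between 0.21 for TUSC3 and 1.42 for OSTC. Proteins of the signal recognition particle rose in 4 of 6, with SRP19 at 0.70 and SRP9, not called, at 0.15.

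The remaining lists cover other routes of membrane insertion and further enzymes. In the ER membrane protein complex, 3 of 10 subunits rose, a share near the 23.7% of all genes, with EMC6 at 0.60 and EMC1, not called, at 0.03. Of the tail-anchor insertion genes, 4 of 7 rose, with CAMLG at 0.50 and GET1, not called, at −0.28. Of the partners of SEC61 for multipass proteins, 4 of 7 rose and 2 fell, with TRAM1 at 0.96 and NCLN at −0.61. Of 14 other thiol and redox proteins 7 rose and 1 fell, among them AGR2, a disulfide isomerase of mucous epithelia, at 2.21 and the sulfhydryl oxidase QSOX1 at −0.40. Of other foldases and trimming enzymes, 7 of 13 rose, with DNAJC25 at 1.24 and DNAJB12, not called, at −0.11. With melanosome against control, 23 of the 72 rose and 18 fell, beside the 29.5% and 33.0% of all genes.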

How the data were processed

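The authors deposited raw gene counts with TPM and FPKM beside them, per the file headers, and a second table with the same TPM (largest difference 0). FPKM were not used. The build is hg38, as the submitters' processing notes name it; the sources used here give neither the aligner nor the annotation, nor how strand was treated in counting. Of 20263 identifiers, 20148 matched a symbol; positions, lengths and GC content are from GENCODE release 29 (GRCh38).

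Of the 48 genes, 21 have exons that overlap another counted gene, and 6 (PDIA3, ERP29, SEC63, SSR1, SSR4 and SPCS2) have pseudogenes named after them, so that their reads may be shared.

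The test was edgeR's quasi-likelihood test (version 4.0.16, R 4.3.3; TMM factors, filterByExpr), with all 9 libraries in a fit and no replicate block, and calls need an adjusted p under 0.05. Standard errors derive from the F statistic. CPM use TMM-scaled library sizes. Alternatives used DESeq2 1.42.0, limma 3.58.1 on log2(TPM + 1) or log2(TPM + 0.1), other scalings and filters, a replicate block, a fold of 1.2 and each library left out. The edgeR code was tested on simulated counts.

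Replicates differed by more than sampling noise in every group, with a chi-square per gene between pairs of 31.4 to 104 in glabridin, 4.44 to 14.4 in melanosome and 3.19 to 5.42 in control libraries. Between 69.9% and 72.2% of counts from 1 to 49 were even, as counting both reads of a pair could give. Whether replicates are separate cultures is not stated in the labels, and the spread behind the p-values is that between libraries, possibly only technical.

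The genes, lists and tests were chosen with earlier results of these data known. Values in every library are given for the largest and smallest log2 fold change with glabridin in each of the 8 role groups, for called changes of at least 2-fold with melanosomes, and for 4 paralog pairs. Of each pathway list, the largest and smallest are named. Other genes were named after their values were seen.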

Additional observations from a re-analysis of the deposited data

How the results depend on the processing

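Each result was recomputed under 20 alternatives. With glabridin against melanosome, 39 to 46 of the 48 genes rose, and 41 to 46 with each library left out. The number that fell was 1 throughout the left-out libraries and 0 with the fold of 1.2. With melanosome against control, the number that rose was 25 with library totals only, 8 with the fold of 1.2, 25 with only the groups compared and 26 with either limma fit, and 12 to 19 with a library left out; the number that fell was 5 with totals only, 6 with the fold of 1.2, 4 with either limma fit, and 7 to 16 with a library left out. With glabridin against control, 38 to 41 rose, and the number that fell was 2 with upper-quartile scaling, 2 with the replicate block, 2 with DESeq2 and 1 to 5 with a library left out. No called gene was called in the opposite direction under any alternative. Upper-quartile scaling moved the median log2 fold change of all genes by −0.112 and library totals by −0.178 for glabridin against melanosome, and totals by 0.167 for melanosome against control.

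Deviations from group means correlated between −0.234 and 0.05 over 9 same-numbered pairs of libraries, against −0.198 to 0.273 over differently numbered pairs. Same-numbered libraries were thus not more alike. Within 3 libraries such deviations sum to 0, so whether replicates were handled in pairs cannot be told from them. With replicate block, 42 genes rose and 1 fell for glabridin against melanosome.

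Single fold changes were compared under every alternative for the 21 genes given by library. For the other members, calls were compared under every alternative. Their fold changes were examined only where leaving out a library changed a call or clearly moved the value. Small values of these other members may therefore also change sign. Among the 21, the values that reversed were small, and the cause was not tested. For glabridin against melanosome these were SDF2 (−0.066 with totals, −0.072 with both limma fits, −0.023 without glabridin replicate 1, and up to 0.153 with another library left out), SEC62 (−0.112 to 0.532 with a library left out, lowest without glabridin replicate 3) and SEC11A (−0.022 with totals, −0.028 and −0.029 with limma). For melanosome against control they were CALR (−0.005 without melanosome replicate 3, −0.009 without control replicate 3, and up to 0.089 with another left out), UGGT1 (0.079 with totals, 0.085 and 0.091 with limma), SEC11A (0.026 with totals, 0.039 with both limma fits), SRPRA (0.018 with totals, 0.031 and 0.032 with limma) and FKBP2 (0.05 with RLE and with DESeq2, 0.053 with upper quartile, 0.149 with totals, 0.064 with only the groups compared, 0.162 and 0.163 with limma, 0.058, 0.03 and 0.036 without glabridin replicate 1, melanosome replicate 1 or control replicate 2, and down to −0.056 with another left out). For glabridin against control they were SEC11A (−0.025 with upper quartile and without glabridin replicate 1, against up to 0.04 with another left out), ERO1B (0.167 without glabridin replicate 2 and 0.065 without control replicate 1, against down to −0.279) and UGGT2 (0.034, 0.162 and 0.048 without glabridin replicate 1, glabridin replicate 2 or control replicate 3, against down to −0.289). Of these reversed values, only those of FKBP2 with limma passed the test (melanosome against control, limma adjusted p = 0.0379 and 0.0401). FKBP2 had no call in the main fit of that comparison. Low counts limit ERO1B, with a mean of at most 6.03 CPM per group.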

Other observations

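The 3 glabridin libraries differed among themselves in a gene-dependent way. For 22 of the 48 genes the highest glabridin value was in replicate 3, for 17 in replicate 1 and for 9 in replicate 2, and the lowest value was in replicate 2 for 29 genes. The log2 ratio of replicate 3 to replicate 2 was 1.26 for SEC62, 0.88 for DNAJB9 and 0.79 for HSP90B1, but −0.40 for FKBP11, −0.35 for SIL1 and −0.29 for SSR4. Over the 48 genes this ratio had a Spearman correlation of −0.70 with transcript GC content and 0.70 with transcript length, all points coming from the same 2 libraries. Summed melanocyte markers were 3723 CPM in replicate 2 and 1987 CPM in replicate 3. The part of these differences in the comparisons was not tested.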
